A study of Homo sapiens with 17 samples.

Results

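The genes described here encode the 4 classical systems of guidance cues and their receptors: semaphorins with plexins, ephrins with Eph receptors, SLITs with ROBO receptors, and netrins with UNC5 receptors. Members were chosen by gene symbol alone among protein-coding genes, as every semaphorin of classes 3 to 7, plexin, EPHA, EPHB, ephrin, ROBO, SLIT, UNC5 and numbered netrin gene. The choice gave 66 genes of the 58302 gene identifiers in the count tables, of which 19817 are protein-coding, and the same 66 were listed in the tables of the sorted cells. They comprise 35 ligands (20 semaphorins, 5 ephrin A, 3 ephrin B, 3 SLIT and 4 netrin genes) and 31 receptors (9 plexins, 9 EPHA, 5 EPHB, 4 ROBO and 4 UNC5 genes).

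Guidance cues were named for steering axons, and endothelial cells use the same molecules. A ligand on one cell, or secreted into the matrix, binds its receptor on a neighbour, and the receptor changes the cytoskeleton and adhesion. Ephrin-B2 and its receptor EphB4 mark arteries and veins, plexin-D1 receives repulsive semaphorin signals in growing vessels, and ROBO4 and UNC5B are guidance receptors of endothelium that bind each other. Blood stem cells arise when specialised endothelial cells round up and detach, so the switch studied here passes from an adherent, vessel-forming cell to a floating one.

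RNA was sequenced in 17 libraries of cells that all descend from the established line H1, made of human embryonic stem cells. Endothelial cells positive for a GATA2/eGFP reporter (green fluorescent protein expressed with GATA2, a transcription factor of blood-forming endothelium) had been derived without or with vitamin C, and were sequenced after sorting (2 libraries per condition) or as a course at 0, 24, 36, 48 and 60 h after re-plating (1 library per condition and time). The remaining 3 libraries, all with vitamin C, held the adherent and the suspended fraction at 60 h and the suspended fraction at 96 h. The study asked how vitamin C bears on the conversion of endothelium into blood cells, and no genotype other than the reporter line was compared. Re-plated samples are labelled as mixtures of endothelial and blood cells, suspended ones as blood cells. For the sorted cells, titles and descriptions disagree on vitamin C in 2 of the 4 libraries, and titles were used. Nothing in the labels says whether libraries came from separate cultures, so the tests measure the spread between these libraries, which may be technical.

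The 13 count libraries held 6214675 to 11058345 counts, so that 1 count was worth 0.0904 to 0.161 CPM (counts scaled to the library's total). Values of the course are given as CPM after TMM scaling, those of adherent and suspended cells as CPM of the library total, and levels are compared between genes only as RPKM, which divides by exon length. All 10 markers of endothelium were at 1 CPM or more in each course library (sum of 6920 to 9816 CPM), whereas the 10 neural markers summed to 8.02 to 26.6 CPM, with NEUROD1 at 0 in 10 of 10. The blood marker PTPRC was at 0 in 7 of the 10 course libraries. Among the members, 6 share over 10% of their exon bases with another gene (EFNA3, SEMA4G, EFNB2, PLXNB3, ROBO4 and EFNA4), and their counts are uncertain to that extent since the strand setting of the counting is not given in the sources used here.

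The libraries of the course, labelled as mixtures of endothelial and blood cells after re-plating, carried some of these genes at high level. Of the 66 members, 17 reached 100 CPM and 40 reached 10 CPM in at least 1 course library. In all 10 of them 9 members stayed at or above 100 CPM, and 9 stayed below 1 CPM in all 13 count libraries. The share of all genes at these levels was not determined. Per length, the ligand EFNB2 was highest (median of 155 RPKM over the 10 libraries, range 17.4 to 219), followed by the receptor PLXND1 (128, range 93.4 to 161). Below them came the membrane semaphorin SEMA4C (median of 67.1 RPKM), UNC5B (60.4), the ephrin-A1 receptor EPHA2 (52.0), the ephrin-B2 receptor EPHB4 (45.6) and EFNA1 (43.9). The ranges of these 5 overlapped one another, so their order is not fixed.

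The receptors PLXND1 and UNC5B were high where SEMA3E, SEMA3C and the netrins were close to the floor. Not every possible ligand was low or compared. SEMA3G, another class 3 semaphorin, had a median of 21.7 RPKM (range 11.3 to 30.1), and FLRT2, a partner of UNC5 receptors, was not set beside UNC5B. PLXND1 had 93.4 to 161 RPKM, whereas its ligand SEMA3E had at most 0.116 RPKM and SEMA3C, another ligand of plexin-D1 with neuropilin, at most 0.287 RPKM. UNC5B had 38.7 to 90.4 RPKM beside at most 0.322 RPKM of NTN1 and at most 0.470 RPKM of NTN4. ROBO4, which also binds UNC5B, had 4.37 to 36.7 RPKM in these libraries. The 4 netrin genes together did not pass 0.511 RPKM in any course library. A count of 0 allows up to 0.483 CPM in the smallest of these libraries (3 counts, counting error only).

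Other pairs had both partners in the same libraries. EFNB2 and EPHB4 stood at 17.4 and 59.4 RPKM at 0 h without vitamin C, and at 58.2 and 54.9 RPKM at 0 h with it. By 60 h the ligand had 215 RPKM without and 219 RPKM with vitamin C, beside 54.2 and 40.9 RPKM of the receptor. EFNA1 and EPHA2 moved within 28.0 to 81.1 and 26.9 to 63.3 RPKM. SEMA4C, which binds plexin-B2, had 47.7 to 94.0 RPKM beside 18.1 to 23.5 RPKM of PLXNB2.

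Re-plating was followed by a shift of the repertoire, with more members lower than higher. The fit across all genes compared the 8 libraries of 24 to 60 h with the 2 libraries of 0 h, and 53 of the 66 members passed the filter on low counts. The other 13 (EPHA5, EPHA6, EPHA8, EPHA10, EPHB6, NTN1, NTN3, NTN4, NTN5, SEMA3C, SEMA3E, UNC5A and UNC5D) were not tested. By edgeR's quasi-likelihood test with Benjamini-Hochberg adjustment over 16276 genes, 24 members were called, beside a background of 20.5% of all genes. Lower after re-plating were 18 members (background 10.9%) and higher were 6 (background 9.65%). The members' median difference was -0.36 on the log2 scale, against 0.004 over all genes. Without the 0 h library lacking vitamin C that median was -0.016, with 27 of 54 members positive, against 0.015 over all genes.

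The 6 genes that rose were 4 ligands, EFNB2, SEMA6B, EFNA5 and SEMA5B, and 2 receptors, ROBO4 and PLXNA2. EFNB2, the arterial ephrin, lies at chr13:106489731-106535662 (GRCh38, minus strand). About 26.2% of its exon bases are shared with another annotated gene. EFNB2 read 87.3, 513, 752, 899.7 and 1079.6 CPM at 0, 24, 36, 48 and 60 h without vitamin C, and 292, 635, 799, 859.7 and 1099.5 CPM with it. All 8 later libraries were above both 0 h libraries, and within each condition every time was above the one before (log2 difference 2.23 ± 0.40 SE, adjusted p = 0.0026 by edgeR). SEMA6B, a transmembrane semaphorin that binds class A plexins, read 13.8, 55.3, 89.0, 112 and 134 CPM without and 6.0, 58.6, 74.1, 108 and 89.6 CPM with vitamin C. It had the second largest rise, 3.24 ± 0.40 on the log2 scale (SE, adjusted p = 0.000239 by edgeR), and its groups did not overlap. EFNA5, an ephrin A anchored in the membrane, went from 0.129 and 0.227 CPM at 0 h to between 0.757 and 6.26 CPM (3.38 ± 0.88), with 1 and 2 counts at 0 h. SEMA5B, a semaphorin with thrombospondin repeats, rose more slowly, from 2.31 and 5.44 CPM to 15.6 and 22.9 CPM at 60 h (1.98 ± 0.49).

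Both receptors that rose peaked at 24 h and then fell. ROBO4, the ROBO receptor of endothelium, read 30.7, 235, 213, 139 and 131 CPM without and 46.3, 258, 214, 163 and 132 CPM with vitamin C, and all 8 later libraries lay above both 0 h libraries (log2 difference 2.28 ± 0.32 SE, adjusted p = 0.000535 by edgeR). PLXNA2, a plexin for class 6 semaphorins, read 95.2, 492, 332, 152 and 138 CPM without and 57.3, 487, 322, 164 and 137 CPM with vitamin C. Its step of 1.89 ± 0.59 (adjusted p = 0.042 by edgeR) joins a sharp peak and a return towards the 0 h level. The 2 conditions traced nearly the same curve for both genes, as the plots by hour show.

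**Figure D1:**
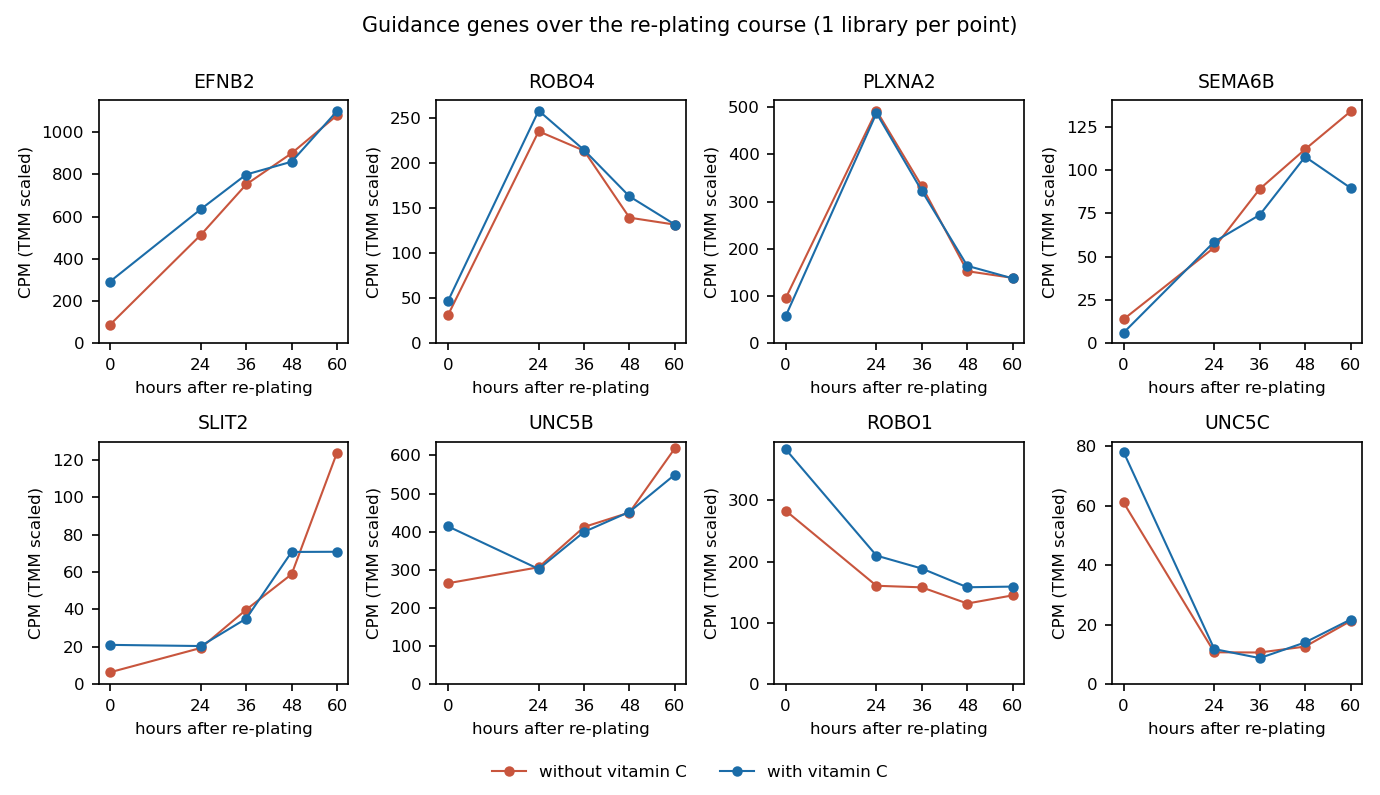
CPM after TMM scaling against hours after re-plating for 8 guidance genes, with 1 library per point and 1 line per condition. EFNB2 climbed from 87.3 and 292 CPM at 0 h to 1079.6 and 1099.5 CPM at 60 h, ROBO4 and PLXNA2 peaked at 24 h, and ROBO1 and UNC5C were lower in every later library than at 0 h.

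The start regions of 3 genes with the contrasting courses are shown for reference: EFNB2 and SLIT2, which were higher at 60 h than at 24 h in both conditions, and PLXNA2, which was highest at 24 h. Each is the 250 bases before the RefSeq transcription start, written 5′ to 3′ on the gene's strand (EFNB2 chr13:106535663-106535912, minus strand; SLIT2 chr4:20251655-20251904, plus strand; PLXNA2 chr1:208244385-208244634, minus strand; RefSeq, GRCh38.p14), and none overlaps an exon of GENCODE 29. Capitals mark matches on either strand to 5 core motifs, no match overlapping another: AGATAA for the GATA family, AGGAAG for the ETS family, TGTGGT for the RUNX family, AACAAT for the SOX family and TGGGAA for RBPJ, the Notch effector.
EFNB2: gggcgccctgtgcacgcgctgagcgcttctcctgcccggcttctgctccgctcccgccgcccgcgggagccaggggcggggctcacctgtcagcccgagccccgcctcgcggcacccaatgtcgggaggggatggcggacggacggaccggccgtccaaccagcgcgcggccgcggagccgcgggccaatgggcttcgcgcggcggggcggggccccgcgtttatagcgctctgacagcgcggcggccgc
SLIT2: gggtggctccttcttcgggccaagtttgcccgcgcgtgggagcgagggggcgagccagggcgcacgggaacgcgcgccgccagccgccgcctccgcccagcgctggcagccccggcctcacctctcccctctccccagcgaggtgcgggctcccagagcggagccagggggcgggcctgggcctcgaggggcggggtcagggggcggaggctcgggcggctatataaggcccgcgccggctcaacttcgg
PLXNA2: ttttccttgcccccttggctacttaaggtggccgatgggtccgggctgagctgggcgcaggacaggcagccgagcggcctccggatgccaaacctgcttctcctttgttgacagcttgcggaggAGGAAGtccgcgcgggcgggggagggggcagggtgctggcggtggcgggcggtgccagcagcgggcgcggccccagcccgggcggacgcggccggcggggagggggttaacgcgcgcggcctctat
The PLXNA2 window held 1 match, AGGAAG starting 126 bases before the start, and the other windows held none. AGGAAG occurs in 28.7% of all 35116 such windows and in 28.1% of the 89 windows of members, AGATAA in 9.2% and 7.9%, TGTGGT in 11% and 9.0%, AACAAT in 9.0% and 2.2%, and TGGGAA in 20.8% and 15.7%. Windows were found for 57 of the 66 members. The GC content of the windows was 78.4% (EFNB2), 77.2% (SLIT2) and 72.4% (PLXNA2), against a median of 58.0% over all windows.

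The 18 genes that fell included receptors of all families but EPHB. UNC5C, a dependence receptor for netrins, read 61.1 and 78.1 CPM at 0 h and 8.81 to 21.8 CPM later (log2 difference -2.31 ± 0.27 SE, adjusted p = 0.000186 by edgeR), while its paralog UNC5B did not pass the test (0.37 ± 0.26). ROBO1, the broadly expressed SLIT receptor, went from 283 and 383 CPM to between 132 and 210.0 CPM (-1.01 ± 0.12) as ROBO4 rose. ROBO2 went from 5.53 and 6.80 CPM to between 1.49 and 3.57 CPM (-1.31 ± 0.34). These 3 fell in all 8 later libraries relative to both 0 h libraries.

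Plexins and Eph receptors contributed 4 more falls. PLXNC1, the receptor of SEMA7A, read 26.0 and 17.0 CPM at 0 h and 3.85 to 8.86 CPM later (-1.88 ± 0.24), and PLXNA4 7.07 and 8.04 CPM, then 0.913 to 2.76 CPM (-2.14 ± 0.36). PLXNB1, the receptor of SEMA4D, fell less (-0.69 ± 0.12, from 48.1 and 47.0 CPM). EPHA7 read 39.1 and 32.3 CPM at 0 h and 4.71 to 23.9 CPM later (-1.66 ± 0.35). For these 4 genes too, the later libraries did not overlap those of 0 h.

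Among ligands, 11 fell. SEMA6A, the ligand of plexin-A2, was the most abundant of them and read 302 and 357 CPM at 0 h and 129.8 to 185 CPM later (log2 difference -1.06 ± 0.10 SE, adjusted p = 5.1e-05 by edgeR). The secreted semaphorins SEMA3B (-3.09 ± 0.66) and SEMA3D (-3.87 ± 0.60) had the largest falls, from at most 6.56 CPM, and SEMA3F went from 116 and 135 CPM to between 49.1 and 111 CPM (-0.67 ± 0.18). SLIT3 read 17.6 and 8.04 CPM at 0 h and 1.16 to 6.87 CPM later (-2.05 ± 0.29). The remaining ones were SEMA4A (-1.78), EFNA2 (-1.53), EFNA4 (-1.28), SEMA4B (-1.15), EFNB3 (-0.73) and SEMA7A (-0.53), with 0 h levels of 1.81 to 53.4 CPM. For SEMA7A, 5 of the 8 later libraries were below both 0 h libraries, and for the other 10 ligands all 8 were. Such separation, here and for the called genes above, was not counted over all genes. It follows in part from choosing these genes by a test on the same libraries. SEMA7A had 53.4 CPM at 0 h without and 26.7 CPM with vitamin C, its difference was -0.045 without the former library, and it was called in 2 of 10 fits with 1 library left out.

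**Figure D2:**
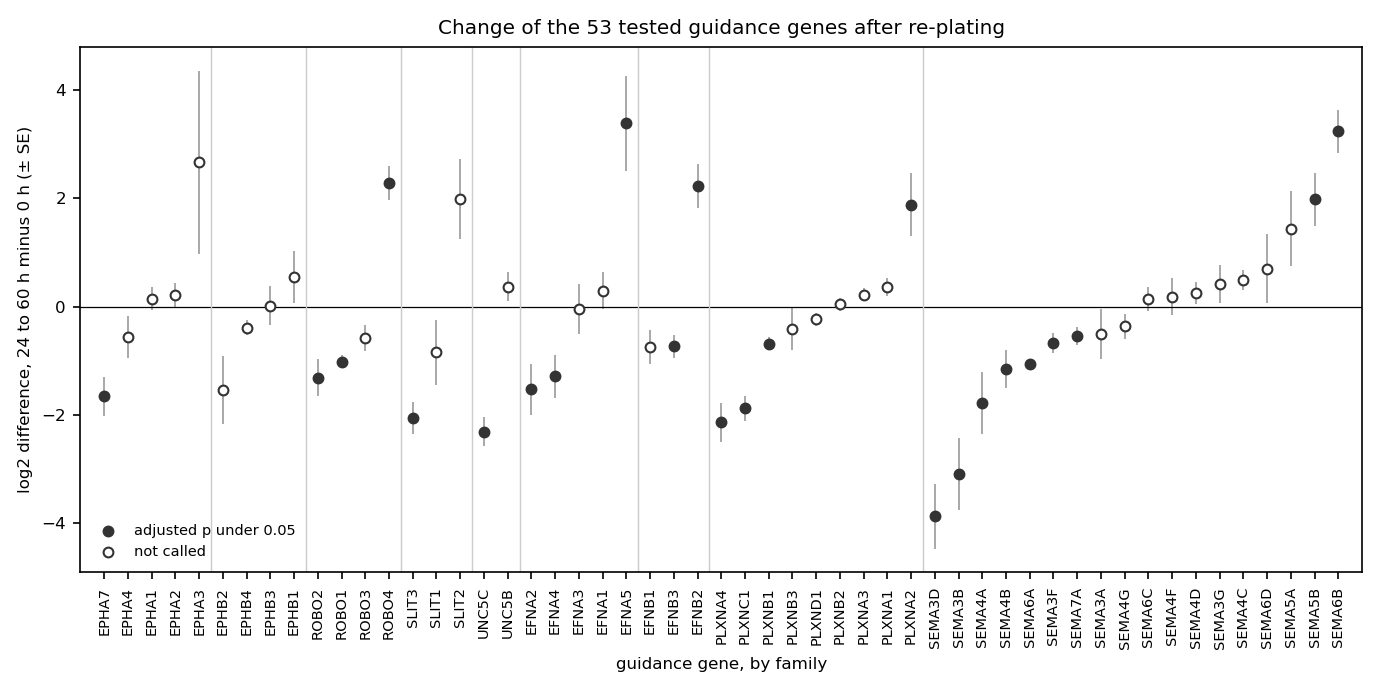
Log2 difference between the 8 libraries of 24 to 60 h and the 2 libraries of 0 h for the 53 tested members, grouped by family, with bars of ± 1 SE from edgeR; filled points had an adjusted p under 0.05. The 6 filled points above 0 are EFNA5, EFNB2, PLXNA2, ROBO4, SEMA5B and SEMA6B, and 18 filled points lie below 0.

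Binding partners and effectors of these receptors were called in both directions, beside the background of 20.5% of all genes. Of 26 co-receptors and other partners, 20 were tested, 5 were higher and 6 lower after re-plating. The semaphorin co-receptors parted, with NRP2 going from 1718 and 1186 CPM to between 218 and 485 CPM (log2 difference -2.04 ± 0.26 SE) and NRP1 rising (0.96 ± 0.13). FLRT2, a partner of UNC5 receptors, fell (-1.63 ± 0.19) and the integrin ITGA1 rose (3.01 ± 0.42). Of 48 intracellular effectors, 46 were tested, 7 were higher and 4 lower, a share of called genes near that background, among them the Eph receptor adaptor SH2D3C (1.21 ± 0.17), higher, with PAK1 (-0.91 ± 0.14) and SRGAP2 (-0.64 ± 0.10) lower.

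The step rests on the 2 libraries of 0 h. Without the 0 h library lacking vitamin C the members' median difference was -0.016 on the log2 scale, as given above. It was -0.33 without the 0 h library with vitamin C, and the median over all genes was 0.015 in both fits. EFNB2, ROBO4, SEMA6B, PLXNC1, ROBO1, SEMA6A, SLIT3 and UNC5C were called in all 10 fits that left out 1 library. Less stable calls were EFNA2 and SEMA7A (2 of 10 fits each), SEMA4A (3), EFNA4 (4), SEMA4B and PLXNA2 (5 each) and EFNB3 (6). Over the same step, summed markers of other cell types moved, and their part in these differences was not tested: the 10 mesenchymal markers summed to 2062 and 2209 CPM at 0 h and to 531 to 1711 CPM later, the 8 pluripotency markers to 942 and 994 CPM and then 248 to 432 CPM (PRDM14 at 0 in all 10 libraries), the 5 venous markers to 2387 and 2689 CPM and then 642 to 1231 CPM, and the 9 arterial markers to 1046 and 1619 CPM and then 1825 to 3688 CPM. The sums hide members that went the other way. Of the 5 venous markers, 1 was called higher (NT5E, 1.12 ± 0.30) and 2 lower (NRP2 and APLNR) by edgeR. Of the 9 arterial markers, 5 were called higher and 1 lower (SOX17, -0.79 ± 0.16). NRP2 and NRP1, described above as co-receptors, count among the venous and the arterial markers. In bulk RNA, fewer cells of a type and less RNA per cell cannot be told apart.

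A straight line over 0 to 60 h takes in the step. By this measure 7 of the 53 members changed without vitamin C (background 4.28%, with 2.15% higher and 2.13% lower) and 3 with it (background 1.78%, with 0.915% higher and 0.86% lower) by edgeR. SLIT2, a secreted repellent that binds ROBO1, read 6.43, 19.4, 39.9, 58.8 and 124 CPM without vitamin C and 21.1, 20.4, 35.1, 70.7 and 70.8 CPM with it. It rose in both conditions, by 4.22 ± 0.40 without and 2.05 ± 0.37 with vitamin C (log2 per 60 h ± SE, adjusted p = 0.0015 and 0.028 by edgeR). SEMA5B also rose in both (2.95 and 2.33 per 60 h) and ROBO1 fell in both (-1.0 and -1.30), while EFNB2 (3.49), EFNA5 (4.51) and UNC5B (1.21) rose and EFNB1 fell (-1.80) without vitamin C. The slope of ROBO1 was -0.34 without and -0.72 with vitamin C over 24 to 60 h alone (adjusted p = 0.40 and 0.081 by edgeR).

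Over 24 to 60 h alone, which leaves the step out, 15 of 48 tested members changed without vitamin C (11 higher and 4 lower; background 16.3%, with 8.63% higher and 7.68% lower) and 12 with it (8 higher and 4 lower; background 11.6%, with 6.41% higher and 5.22% lower) by edgeR. In both conditions EFNA1, EFNB2, SEMA3G, SEMA5A, SEMA6D, SLIT2 and UNC5B rose, and EFNB1, PLXNA2 and ROBO4 fell. UNC5B read 307, 412, 450.3 and 619 CPM at 24, 36, 48 and 60 h without vitamin C and 302, 399.5, 452 and 549.6 CPM with it, so that each time was above the one before (1.59 ± 0.22 and 1.38 ± 0.23 per 60 h). EFNA1, a ligand of EphA2 that is induced by inflammatory signals, read 71.1, 109, 134 and 206 CPM without and 72.7, 99.5, 138 and 149 CPM with vitamin C (2.46 ± 0.27 and 1.78 ± 0.28). EFNB1 went the other way, from 34.4 to 14.3 CPM without and from 28.2 to 14.5 CPM with vitamin C, while EFNB2 rose.

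No member passed the test of a difference in slope between the conditions. By edgeR 0 of the 53 members and 0 of 16276 genes were called for the difference in slope over 0 to 60 h (5 members and 473 genes at an unadjusted p under 0.05), and DESeq2 called 11 genes and no member. Over 24 to 60 h alone 0 of 48 members were called, beside 0.00641% of all genes. The smallest unadjusted p was that of SLIT2 (0.0020), whose slope with vitamin C minus that without was -2.17 ± 0.53 (log2 per 60 h ± SE, adjusted p = 1 by edgeR), and SEMA3A, SEMA7A and SLIT1 were the others beside EFNB2. For EFNB2 the slope with vitamin C minus that without was -1.65 ± 0.73 (log2 per 60 h ± SE, unadjusted p = 0.048), with the conditions starting apart at 0 h (292 against 87.3 CPM) and meeting at 60 h.

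The counts over hours depend on single libraries. With vitamin C the count of 3 stood beside 289 of all genes. It became 0 without the 0, 48 or 60 h library of that condition (9, 45 and 39 of all genes). It was 1 without its 36 h library or the 48 h library of the other (127 and 112), and 6 without the other condition's 0 h library (624). Without vitamin C the count of 7 stood beside 697 of all genes. It became 1 without that condition's 0 h library (141 of all genes) and 4 without its 36 h library (423). It was 3 without its 48 or 60 h library (302 and 257), and 13 without the 0 h library with vitamin C (1025). SLIT2 without vitamin C was called in all 10 such fits.

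Over the course, 8 of the 53 tested members differed between the conditions without and with vitamin C (background 5.87% of 16276 genes, edgeR). The fit took the time point as a factor. Higher with vitamin C were 5 (EPHB1, SEMA5B, SEMA3F, ROBO1 and SEMA6A, background 2.5%) and lower were 3 (SEMA5A, SLIT3 and EPHA7, background 3.37%). Each of the 8 kept its direction at all 5 times, which was not counted over all genes and follows in part from the test that chose them. Whether a difference between cultures contributed was not tested, since the labels do not say which libraries shared a culture. The median difference over the members was -0.18 on the log2 scale, against 0.007 over all genes, and 17 of 53 were positive.

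The 3 lower genes included the widest gaps. SEMA5A, a bifunctional semaphorin of neurons and endothelium, read 5.79, 6.96, 8.83, 9.01 and 31.8 CPM at 0, 24, 36, 48 and 60 h without vitamin C and 1.47, 1.46, 3.10, 6.51 and 7.69 CPM with it (log2 difference -1.59 ± 0.25 SE, adjusted p = 0.0031 by edgeR). SLIT3, a secreted ROBO ligand, read 17.6, 5.64, 3.02, 6.87 and 5.22 CPM without and 8.04, 1.62, 1.36, 2.12 and 1.16 CPM with vitamin C (-1.52 ± 0.24, adjusted p = 0.0031 by edgeR). EPHA7, an Eph receptor better known from the nervous system, read 39.1, 8.79, 16.7, 21.8 and 23.9 CPM without and 32.3, 4.71, 5.09, 11.7 and 8.27 CPM with vitamin C (-1.01 ± 0.19, adjusted p = 0.0080 by edgeR). At matched times the 2 conditions never crossed for these genes, although their ranges over the whole course overlapped.

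SEMA5B moved opposite to its paralog SEMA5A. It read 2.31, 5.38, 7.79, 15.6 and 15.6 CPM without and 5.44, 9.57, 18.2, 24.5 and 22.9 CPM with vitamin C (0.86 ± 0.16, adjusted p = 0.0065 by edgeR). EPHB1, a receptor of B ephrins, stayed low, with 1.16 to 3.14 CPM without and 2.47 to 7.63 CPM with vitamin C (1.25 ± 0.28, adjusted p = 0.022). The other 3 differed by small amounts on high levels: SEMA3F by 0.45 ± 0.09, ROBO1 by 0.30 ± 0.07 and SEMA6A by 0.26 ± 0.06 on the log2 scale, with condition means of 76.1 and 102, 176 and 220.0, and 175 and 209.5 CPM without and with vitamin C.

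**Figure D3:**
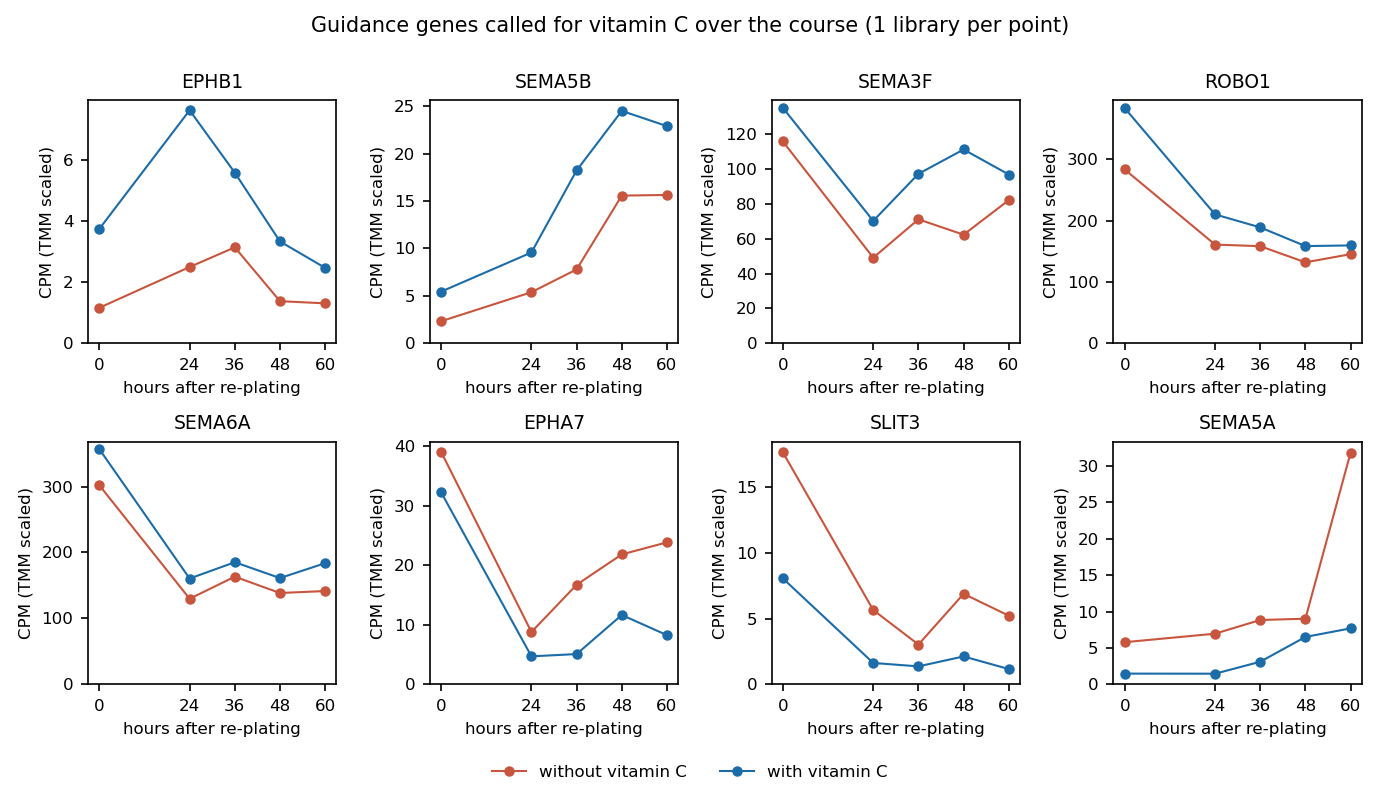
CPM after TMM scaling against hours after re-plating for the 8 members called for vitamin C, with 1 library per point and 1 line per condition. The line with vitamin C lies above the other at all 5 times for EPHB1, SEMA5B, SEMA3F, ROBO1 and SEMA6A and below it at all 5 for EPHA7, SLIT3 and SEMA5A.

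The 7 members with the highest median RPKM did not pass this test, and neither did ROBO4. EFNB2 differed by 0.39 ± 0.19 (log2 ± SE, adjusted p = 0.31), ROBO4 by 0.18 ± 0.09 (0.30), PLXND1 by 0.21 ± 0.06 (0.064), UNC5B by 0.08 ± 0.10 (0.73), EPHB4 by -0.12 ± 0.08 (0.44) and EPHA2 by -0.50 ± 0.14 (0.051), all by edgeR. SEMA4C differed by -0.015 ± 0.0775 (adjusted p = 0.951) and EFNA1 by -0.0224 ± 0.1066 (0.9465), also by edgeR. Of the partners, 2 were higher and 6 lower among the 20 tested (background 2.5% higher and 3.37% lower). GPC1 (-0.90 ± 0.11), a heparan sulfate proteoglycan that binds SLITs, and L1CAM (-1.58 ± 0.21), a cell adhesion partner of neuropilin, were lower. ITGB1 (-0.25 ± 0.05) was also lower, and PLXDC2 (1.03 ± 0.19) was higher. Of the 48 intracellular effectors, 46 were tested, 3 were higher and 2 lower.

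EPHA7, SEMA5A, SEMA5B and SLIT3 were called in all 10 fits that left out 1 library. EPHB1 was lost without either 24 h library, either 48 h library or the 36 h library with vitamin C, ROBO1 and SEMA3F without any library of 24, 36 or 48 h, and SEMA6A without any of 24 to 60 h. The count of 8 stood beside 955 of all genes. It was 5 without either 24 h library (611 and 610 of all genes) or the 36 h library with vitamin C (516). It was 4 without either 48 h library (505 and 508) and 12 without either 0 h library (1209 and 1196). With no term for time 0 members were called, beside 28 of 14773 genes. Marker sums moved with vitamin C as well: the 12 blood markers summed to 80.3 to 154 CPM without and 152 to 507 CPM with it (TYROBP at 0 in 5 of 10 libraries), the 10 mesenchymal markers to 926 to 2062 CPM and 531 to 2209 CPM (DCN at 0 in 4), and the 8 epithelial markers to 1107 to 1209 CPM and 498 to 552 CPM. The 10 neural markers summed to 12.5 to 26.6 CPM without and 8.02 to 13.8 CPM with vitamin C, and of the 4 tested STMN2 (-2.01 ± 0.37) and TUBB3 (-1.47 ± 0.32) were called lower by edgeR. Their part in the differences was not tested.

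Cells in suspension carried much less RNA of most guidance genes. The 66 members summed to 6597 CPM in the adherent library, 1999 CPM in the suspended library of 60 h and 1051 CPM in that of 96 h. In the same order, 19, 18 and 34 members were below 1 CPM, so this count did not rise at 60 h. The share of all genes below 1 CPM was not determined. There was 1 library of each, so no test was possible, and a gene was counted where the 2 libraries differed by 2-fold or more and the higher one had 5 CPM or more. By this rule 26 of 42 members were lower in suspended than adherent cells at 60 h (background 14.6% of 12705 genes, 26.9% in either direction) and 6 were higher (background 12.3%). The members' median log2 ratio was -1.26, against 0.14 over all genes.

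EFNB2, UNC5B and ROBO4 are described first, although their ratios were not the largest. SEMA5B (16.2-fold), SEMA5A (14.4-fold) and SEMA6D (12.0-fold) were lower by more at 60 h. PLXND1, with 154 RPKM in adherent cells, differed by 2.36-fold. EFNB2 had 1253 CPM in adherent cells (exact 95% Poisson interval 1229 to 1278), 160.1 CPM in suspended cells at 60 h (151 to 169.8) and 24.2 CPM at 96 h (21.4 to 27.3), which was 7.83-fold lower at 60 h. UNC5B read 693, 65.0 and 1.18 CPM, 10.7-fold lower at 60 h. ROBO4 read 160.3 and 22.1 CPM at 60 h, 7.24-fold lower, and had no count at 96 h, at least 81.6-fold below 60 h (against 3 counts in the 96 h library). The 95% intervals of these libraries did not overlap for any of the 3 genes, and intervals and limits here cover counting error only.

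Both ligands and receptors were lower. In the same order of libraries SLIT2 read 89.9, 10.8 and 0.181 CPM and SEMA6B 113, 19.7 and 0.181 CPM, where 0.181 CPM is 2 counts (95% interval 0.0219 to 0.653). SEMA5B read 30.3, 1.87 and 0.0904 CPM (1 count), and SEMA3F, a neuropilin-2 ligand, 129, 28.3 and 0.904 CPM. Among receptors, PLXNA2 read 162, 20.3 and 4.34 CPM, EPHB4 318, 104 and 35.2 CPM and PLXND1 1499, 635 and 375 CPM. PLXND1 still had 65.2 and 38.5 RPKM in suspension, and was 2.36-fold lower than in adherent cells at 60 h. The other genes past 2-fold were EFNA1, EFNB3, EPHA2, EPHA4, EPHA7, PLXNA1, ROBO1, SEMA3A, SEMA3G, SEMA4C, SEMA4F, SEMA5A, SEMA6A, SEMA6C, SEMA6D and UNC5C, from 2.16-fold (ROBO1) to 14.4-fold (SEMA5A) lower.

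A few members ran the other way. ROBO2, a SLIT receptor of neurons and other tissues, read 1.36 CPM in adherent cells (11 counts), 13.7 CPM in suspension at 60 h (95 counts) and 46.3 CPM at 96 h (512 counts), 10.1-fold higher in suspended than adherent cells at 60 h and 3.39-fold higher again at 96 h. ROBO4 was at 0 in the library where ROBO2 was highest. PLXNA4 (1.23, 13.4 and 6.15 CPM) and PLXNC1 (2.71, 13.4 and 22.6 CPM), a plexin of blood cells, were 10.9-fold and 4.93-fold higher at 60 h in suspension. SEMA4D, the leukocyte semaphorin CD100, read 22.1, 49.3 and 41.1 CPM, SEMA4B 3.57, 10.3 and 23.5 CPM, and EFNB1 11.3, 32.5 and 44.7 CPM. EFNB1 stood above EFNB2 at 96 h (13.5 against 4.83 RPKM), whereas adherent cells had 3.42 and 249.7 RPKM.

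From 60 to 96 h in suspension, 19 of 35 members were lower by 2-fold or more (background 10.5% of 12405 genes, 16.1% in either direction) and 2, ROBO2 and SEMA4B, were higher (background 5.54%). The median over the members was -1.06 on the log2 scale, against -0.19 over all genes. Among the lower ones were UNC5B (55.3-fold), SEMA3F (31.3-fold), UNC5C (11.1-fold), SEMA3G (8.86-fold), EFNA1 (8.16-fold), EFNB2 (6.61-fold), EPHA2 (5.84-fold) and PLXNB1 (4.80-fold). NTN1, which was not above the minimum of 5 CPM, read 0.986, 1.58 and 4.88 CPM in the 3 libraries (8, 11 and 54 counts).

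**Figure D4:**
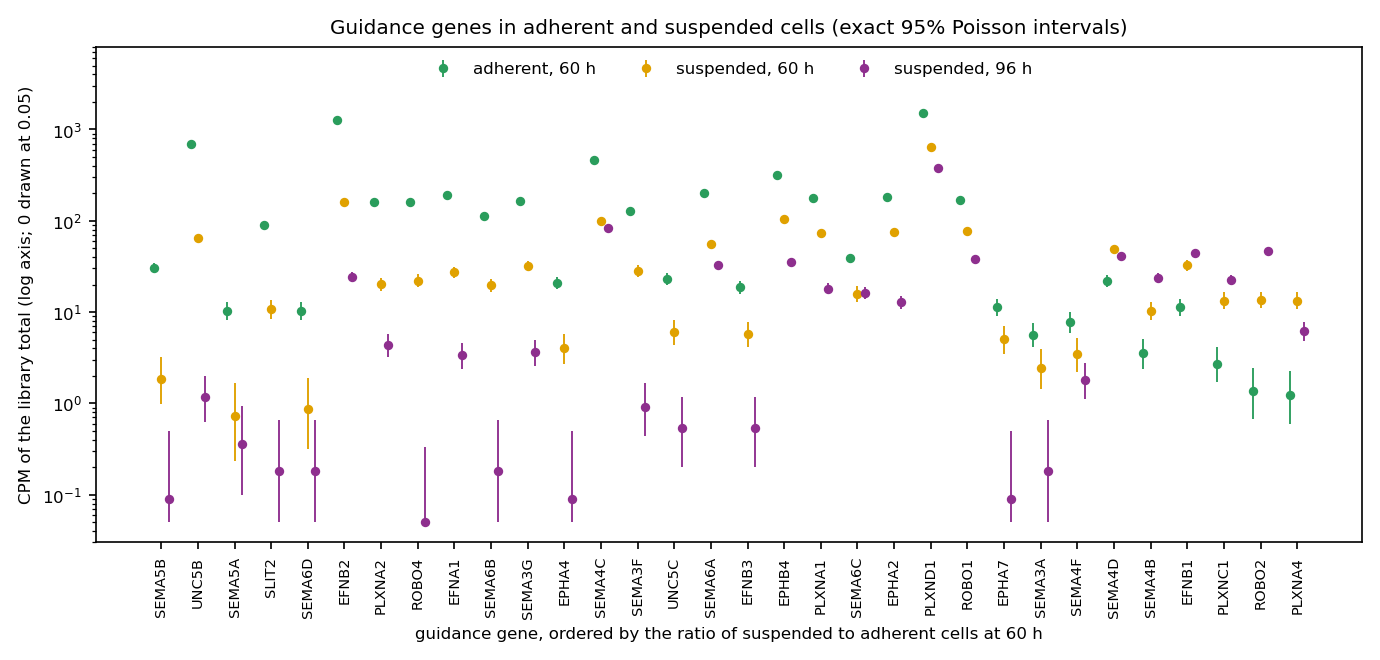
CPM of the library total on a log axis for the 32 members past 2-fold between suspended and adherent cells at 60 h, in 3 libraries, with exact 95% Poisson intervals of the count and 0 drawn at 0.05. From left to right the ratio of suspended to adherent cells rises, with SEMA5B 16.2-fold lower at the left and PLXNA4 10.9-fold higher at the right.

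Marker RNA of endothelium and blood moved along the same libraries, as did the mitochondrial share of counts, which was 5.80% in adherent cells, 7.44% in suspension at 60 h and 9.66% at 96 h. The 10 endothelial markers summed to 9869, 2000 and 929 CPM in adherent cells and in suspension at 60 and 96 h, with 10, 10 and 9 of them at 1 CPM or more and none at 0. The 12 blood markers summed to 176, 2223 and 4877 CPM, with PTPRC at 0 in adherent cells. CDH5, the defining cadherin of endothelium, read 1347, 194 and 4.25 CPM, and NRP1 886, 119 and 4.43 CPM. Their part in the members' differences was not tested. With TMM scaling in place of library totals, the median log2 ratio of all genes moved from 0.14 to 0.03 at 60 h and from -0.19 to -0.03 at 96 h, and 26 members were lower and 6 higher at 60 h, 16 lower and 3 higher at 96 h.

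In the sorted cells, where values are TPM (transcripts scaled to length and to the library's total, with no depth), no member passed the test between the conditions. By limma 0 of the 50 tested members and 0 of 14421 genes were called (3 members and 313 genes at an unadjusted p under 0.05). EFNB2 read 219 and 101 TPM in the cells lacking vitamin C and 479 and 83.8 TPM in the others, means of 160.2 ± 83.8 and 282 ± 279.8 TPM (SD, n = 2). UNC5B read 163 and 35.8 against 393 and 50.9 TPM, and ROBO4 22.8 and 6.32 against 39.1 and 2.46 TPM. In each of these genes both libraries numbered 1 lay above both numbered 2, and the conditions overlapped. The 8 arterial markers found in these tables, of 9 listed, divided the same way, summing to 1653 and 4604 TPM in the libraries numbered 1 and to 897 and 1048 TPM in those numbered 2, and their part was not tested.

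Other receptors were steadier across the 4 libraries. EPHB4 had 236 ± 4.02 TPM without and 202 ± 9.75 TPM with vitamin C (SD, n = 2), and PLXND1 1049 ± 3.49 and 1294 ± 267 TPM. The smallest unadjusted p-values belonged to EPHA4 (14.9 and 17.9 TPM without, 4.33 and 7.67 TPM with vitamin C, adjusted p of 0.9998 by limma), PLXNB3 and ROBO1 (174 and 206 against 136 and 101 TPM). ROBO1 was thus lower with vitamin C in the sorted cells (-0.69 ± 0.27 on the log2(TPM + 1) scale, not called) and higher with it at all 5 times of the course. The difference between the experiments was not tested.

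**Figure D5:**
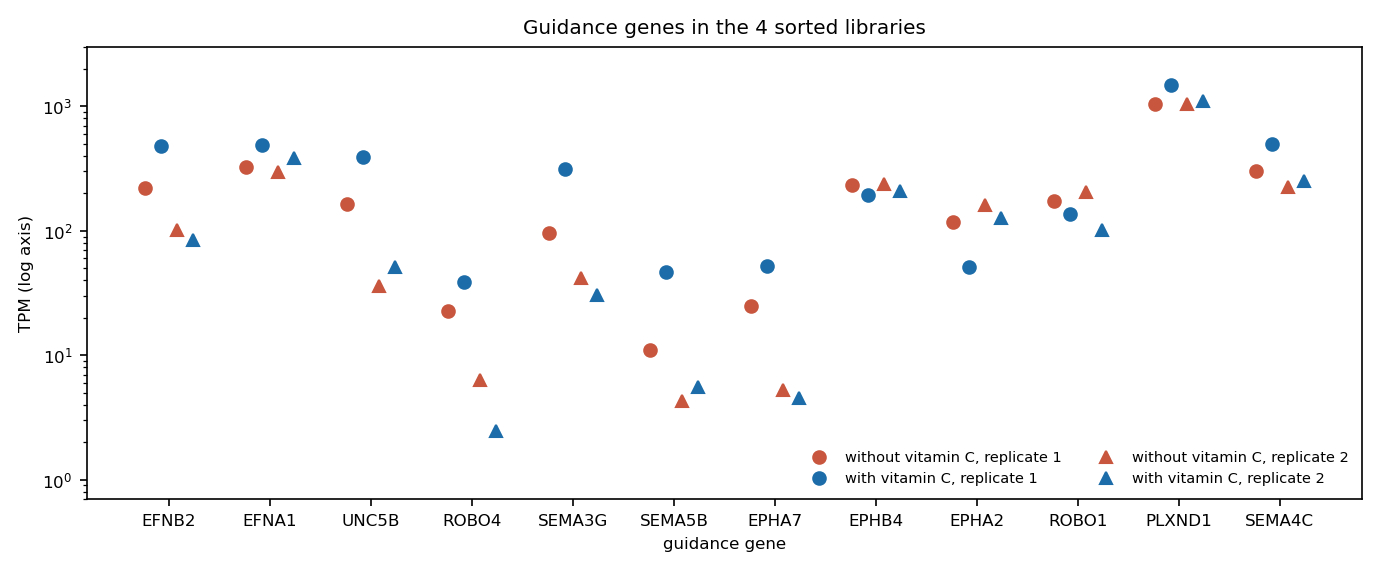
TPM on a log axis for 12 members in the 4 sorted libraries, with colour for the condition given by the titles and shape for the replicate number. EFNB2, UNC5B, ROBO4, SEMA3G, SEMA5B, EPHA7 and SEMA4C separate by replicate number, with both circles above both triangles. EPHA2 separates the other way, with both circles below both triangles, while EPHB4 lies between 195 and 239 TPM in all 4 libraries.

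Grouped by the descriptions instead of the titles, which is the same as comparing the libraries numbered 2 with those numbered 1, 3 members were called by limma (background 1.08% of 14421 genes, 0.825% lower), all lower in number 2: EPHA7 (-2.66 ± 0.39, adjusted p = 0.036), ROBO4 (-2.62 ± 0.44, 0.046) and UNC5B (-2.54 ± 0.40, 0.040). Which of the 2 label fields is right cannot be told from these files.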

How the data were processed

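RNA from H1-derived cells was sequenced in 17 libraries, grouped by their titles. Trizol RNA and an Illumina TruSeq kit were used, per the labels' protocols. The authors deposited raw read counts per gene in 13 tables and, in 4 tables of the sorted cells, values read as TPM (sums of 995020 to 996531; the log2 ratio to CPM fell with gene length, slope -0.657 over 10631 genes). How the deposited TPM were made is not given in the sources used here. Tools listed in the submitters' processing notes, with no role for each, are DESeq 1.18.1, HTSeq 0.6.0, SAMtools 1.3.1 and HISAT2 2.0.4, with build GRCh38. Genes were named from GENCODE 29 (58039 of 61162 identifiers), which also gave exon lengths for RPKM.

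Counts were fitted over all genes with edgeR 4.0.16 (TMM, filterByExpr, quasi-likelihood F test, R 4.3.3), with vitamin C plus time as a factor, a step after 0 h, or a line over hours per condition scaled to 60 h. Log2(TPM + 1) was fitted with limma 3.58.1 (trend) where 2 libraries or more reached 1 TPM, and DESeq2 1.42.0 was an alternative. All p-values are two-sided and were adjusted by Benjamini-Hochberg across every tested gene, with calls under 0.05. With 1 library per condition and time, course p-values measure departures among single libraries. Single libraries were compared as CPM ratios with 0.5 CPM added for log2 values and exact 95% Poisson intervals. The fits were tested on simulated counts.

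Members named with values were those called in a test, past 2-fold with 5 CPM or more in the higher one of a pair of libraries, or in a ligand and receptor pair with a course mean of at least 5 CPM, and others were named where a statement needed them after their values were seen. The members and gene lists were chosen with earlier results of these data known. Reporter-negative cells were not analysed here.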

Additional observations from a re-analysis of the deposited data

How the results depend on the processing

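The counts of members called kept within 1.5 times with DESeq2 size factors in all course comparisons. For vitamin C over the course the count of 8 (955 of all genes) became 16 with no filter (1591) and 0 with no term for time (28). It ranged from 4 to 12 when 1 library was left out, beside 505 to 1209 of all genes. For hours with vitamin C the count of 3 (289 of all genes) became 6 with DESeq2 (712) and 5 with no filter (438). It was 12 without the 0 h pair (1814), 1 with time ranks (92), and 0 to 6 with 1 library left out (9 to 624). For hours without vitamin C the count of 7 (697 of all genes) became 15 with DESeq2 (1284) and 13 with no filter (839). It was 15 without the 0 h pair (2545), and 1 to 13 with 1 library left out (141 to 1025). The step of 24 (3343 of all genes) ranged from 18 to 24 without 1 library of 24 to 60 h (2776 to 3671). Leaving out a 0 h library left 1 library on that side. The members' median difference was then -0.016 without the one lacking vitamin C and -0.33 without the other. In the sorted cells the count of 0 became 3 with the descriptions' groups and was 0 with a replicate block (7 members and 1237 genes unadjusted). The labels do not say what a shared number means. Same-numbered sorted libraries deviated together (r = 0.565 over 14421 genes, which are not independent). No called gene reversed its direction. Genes not called over 0 to 60 h did turn and were called without the 0 h pair, with the values of ROBO4 (0.99 to -1.65), EPHA2 (0.23 to -1.14), EFNA4 (-0.64 to 3.75) and PLXNA2 (0.06 to -3.22) with vitamin C, and of ROBO4 (1.33 to -1.56), SEMA4C (0.24 to -0.98) and EPHA7 (-0.58 to 2.27) without it (log2 per 60 h). Each of 42 calls was refitted in 10 fits with 1 library left out, and of these outcomes 302 were still called and 118 were not, and 19 ratios between single libraries moved with 5 CPM added. With 5 CPM added, 28 in place of 32 members passed 2-fold between suspended and adherent cells, and 14 in place of 21 between 96 and 60 h. Over all genes 2377 in place of 3413 and 1224 in place of 1995 passed. The cause of these changes was not tested, and fits with fewer libraries gave higher as well as lower counts. The unknown depth of the TPM tables allows no limit for members at 0 there.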
